A study of Mus musculus with 8 samples.

Results

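The 37 genes described here carry glucose into the cell, break it down to lactate, admit pyruvate to mitochondria, sense oxygen through hypoxia-inducible factor (HIF), or make citrate-derived immune metabolites. They are defined by a list of gene symbols and make up 37 of the 24584 genes in the deposited tables. All 37 were found, and all 37 were among the 15706 genes that passed the count filter. RNA-seq was available for lung tissue of male ICR mice, an outbred stock, aged 6 to 8 weeks and labelled as wild type. The LPS group (n = 4) received 5 mg/kg lipopolysaccharide, a bacterial cell wall component that induces acute lung injury, into the peritoneum. The LPS + Tan group (n = 4) received the same dose of LPS 30 min after 50 mg/kg tangeretin, a polymethoxylated citrus flavonoid, by the same route. Lungs were taken 12 h after LPS, so that every sample had been exposed to LPS, and no uninjured lung was analysed here. The comparison therefore asks whether tangeretin changed these RNAs in LPS-treated lung, and cannot say how LPS itself changed them.

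Glycolysis converts glucose to pyruvate in the cytosol and yields ATP without oxygen, and lactate dehydrogenase then regenerates the NAD+ that the pathway consumes. Activated neutrophils and macrophages lean on this route, and LPS is known to raise glycolytic flux in them. HIF-1α, the oxygen-regulated subunit of HIF, is kept low by prolyl hydroxylases when oxygen is plentiful, drives most glycolytic genes when stabilised, and is itself induced through NF-κB. In macrophages, mitochondrial citrate is diverted to itaconate by the enzyme encoded by Acod1.

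HIF binds DNA at hypoxia response elements, whose core is ACGTG or GCGTG. Promoter windows of 250 bases before to 50 bases after a start site (RefSeq, build GRCm38.p6) were found for 34 of the 37 genes, and the 3 without an entry were Slc2a3, Epas1 and Ndrg1. The letters ACGTG were present on either strand in a window of 23 of these 34 genes (67.6%), against 27.8% of 12366 tested genes with a window and 21.8% of all 27025 genes with one. GCGTG was present in 22 of 34 (64.7%), against 52.1% and 35.2%. The members were listed as glycolysis and HIF pathway genes, so a higher share of HIF core letters is not independent of that choice. A gene with several windows, such as Pfkm with 4, counted if any of them held a match, in the members and in all genes alike. The palindrome CACGTG holds ACGTG on both strands and counts as 2 overlapping matches, and a match is only a run of letters and not evidence of binding. Both start site windows of Pfkfb3, the Hif1a and Ankrd37 windows and a Ldha window are printed, because the first 3 genes had the largest differences described below among genes with a window (that of Ndrg1 was larger) and Ldha had the most matches (5 ACGTG and 2 GCGTG). Each reads 5′ to 3′ along the gene's own strand, with matches on either strand in capitals.
Pfkfb3 window 1, chr2:11553880-11554179, minus strand: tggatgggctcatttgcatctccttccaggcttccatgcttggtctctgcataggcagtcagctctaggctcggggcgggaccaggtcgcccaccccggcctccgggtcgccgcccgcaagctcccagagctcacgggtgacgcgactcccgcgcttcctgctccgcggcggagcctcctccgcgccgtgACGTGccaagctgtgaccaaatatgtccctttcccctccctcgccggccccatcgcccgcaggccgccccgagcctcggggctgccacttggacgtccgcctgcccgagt
Pfkfb3 window 2, chr2:11502041-11502340, minus strand: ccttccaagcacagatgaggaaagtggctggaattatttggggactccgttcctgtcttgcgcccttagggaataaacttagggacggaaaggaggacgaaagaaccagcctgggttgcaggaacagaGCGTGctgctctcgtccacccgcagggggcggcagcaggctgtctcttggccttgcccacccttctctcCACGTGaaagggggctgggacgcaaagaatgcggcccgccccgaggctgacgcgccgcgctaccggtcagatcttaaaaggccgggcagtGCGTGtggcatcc
Hif1a, chr12:73907617-73907916, plus strand: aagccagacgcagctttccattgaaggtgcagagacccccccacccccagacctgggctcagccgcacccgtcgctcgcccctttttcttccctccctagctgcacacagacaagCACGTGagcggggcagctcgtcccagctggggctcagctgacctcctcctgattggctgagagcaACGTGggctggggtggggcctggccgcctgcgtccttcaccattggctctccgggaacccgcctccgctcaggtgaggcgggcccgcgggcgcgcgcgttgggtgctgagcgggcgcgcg
Ankrd37, chr8:45999801-46000100, minus strand: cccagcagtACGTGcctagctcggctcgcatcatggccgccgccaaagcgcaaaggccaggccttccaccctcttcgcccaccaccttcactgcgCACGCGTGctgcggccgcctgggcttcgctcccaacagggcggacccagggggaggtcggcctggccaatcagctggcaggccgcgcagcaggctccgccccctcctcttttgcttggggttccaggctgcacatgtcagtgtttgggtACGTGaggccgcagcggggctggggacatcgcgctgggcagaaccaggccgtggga
Ldha, chr7:46845554-46845853, plus strand: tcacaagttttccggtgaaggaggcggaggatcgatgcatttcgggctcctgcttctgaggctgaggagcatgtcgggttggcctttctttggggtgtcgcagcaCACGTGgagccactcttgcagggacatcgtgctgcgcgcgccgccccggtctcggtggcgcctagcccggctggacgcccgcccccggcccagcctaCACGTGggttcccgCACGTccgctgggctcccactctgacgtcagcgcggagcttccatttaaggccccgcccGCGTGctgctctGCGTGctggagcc
The HIF core letters stood in the upstream Pfkfb3 window once and in the downstream one 4 times. Hif1a, which encodes the HIF subunit itself, held ACGTG 3 times and GCGTG not at all. These windows come from the reference and carry no measurement of factor binding in these lungs.

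Taking both directions together, the share of these genes that met an unadjusted threshold was close to that of all tested genes. None passed after adjustment, and in edgeR's quasi-likelihood test neither did any other tested gene. A gene is called here at an unadjusted p below 0.05 in edgeR. Pfkfb3 and Ndrg1, 2 of the 37 genes (5.41%), were called lower with tangeretin, against 2.25% of all tested genes called lower. None of the 37 was higher, against 2.87% of all tested genes, and in both directions together 5.12% of tested genes were called. No member passed the thresholds used in the study, an unadjusted p below 0.05 with an absolute log2 fold change above 1, which 0.649% of tested genes passed. After Benjamini-Hochberg adjustment over all tested genes in edgeR's quasi-likelihood test no gene passed 0.05 (0.00% of 15706), although 804 had an unadjusted p below 0.05, and the lowest adjusted p of any member was 0.924. DESeq2 called 35 genes and edgeR's likelihood ratio test 23, none of them a member. On simulated counts with no changed gene, DESeq2 called 22. The count of members lower at an unadjusted p below 0.05 moved with single samples. It was 0 without LPS replicate 2, LPS + Tan replicate 1 or LPS + Tan replicate 3, 1 without LPS replicate 3 and 5 without LPS + Tan replicate 2, where 2 members were also higher. Without LPS + Tan replicate 2 the number of all genes with an unadjusted p below 0.05 rose as well, from 804 to 1626, and it was 1488 without LPS + Tan replicate 4 and 480 without LPS + Tan replicate 1. In the fit without LPS + Tan replicate 4, 1 gene passed adjustment. Without LPS replicate 1, 1 member was higher.

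For every member the LPS and LPS + Tan ranges overlapped in CPM, the counts of a gene scaled to library size and TMM factor. The ranges were separate for only 2.73% of tested genes (1.58% higher and 1.15% lower in LPS + Tan). At that share, the overlap of every member does not set these genes apart. The median log2 fold change of the members was -0.0054, beside 0.0070 for all tested genes, with 21 members below 0 and 16 above, and 7 members near 0 turned sign when sample totals replaced TMM. For 27 of the 37 genes (73.0%) the whole 95% interval of the difference lay within a 1.5-fold change either way, as it did for 63.1% of tested genes. The interval lay within a 2-fold change for 33. Pfkfb3, Hif1a, Ankrd37 and Ndrg1 were the 4 whose intervals reached beyond 2-fold. A p that misses the threshold does not show that levels were equal, and the intervals give the sizes of difference that these samples allow.

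**Figure D1:**
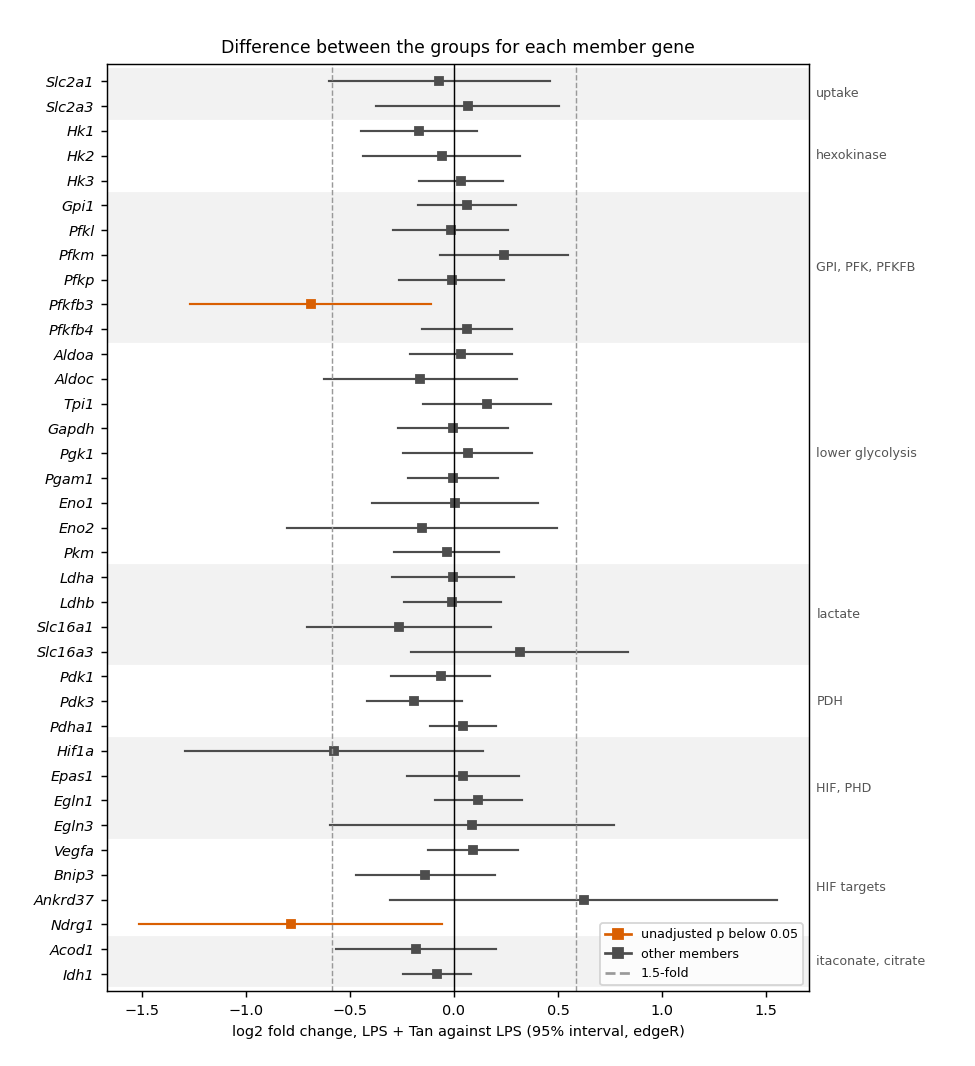
Log2 fold change of LPS + Tan against LPS for each of the 37 genes (x axis), grouped by role (y axis), with squares for edgeR's estimate and lines for its 95% interval. The lines of Pfkfb3 and Ndrg1, in orange, end below 0, and 27 of the 37 lie between the dashed 1.5-fold limits.

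Total counts were 38895654 to 39931970 per sample, so depth hardly differed. The lung label held, since markers of alveolar epithelium summed to 10773 to 15192 CPM in LPS and 10591 to 16317 CPM in LPS + Tan. The LPS + Tan samples varied more among themselves than the LPS samples. The median squared deviation between pairs of samples was 8.61 to 15.2 times sampling noise in the LPS group and 8.78 to 28.3 times in the LPS + Tan group. Each LPS + Tan pair with replicate 4 gave 22.88 or more. Of the marker lists for cells that lung tissue can hold, neutrophil genes summed to 9625 to 13514 CPM in LPS and 9879 to 10764 in LPS + Tan, and monocyte and macrophage genes to 2046 to 2990 and 2005 to 3127. Endothelial genes summed to 4459 to 5837 and 5383 to 5780, airway epithelial genes to 14020 to 19036 and 12655 to 18126, and fibroblast and smooth muscle genes to 2979 to 3572 and 2667 to 3261. The sums were 133 to 237 and 117 to 268 for lymphocytes, 150 to 246 and 175 to 241 for proliferation, 1433 to 3465 and 1332 to 2192 for erythroid cells, and 176 to 248 and 174 to 346 for heart and skeletal muscle. All 10 erythroid genes and 7 of 9 airway genes had a log2 fold change below 0, as did 9 of 14 alveolar, 7 of 11 fibroblast and smooth muscle, 6 of 13 lymphocyte and 9 of 19 neutrophil genes. All 10 proliferation genes, 17 of 22 monocyte and macrophage genes, 10 of 15 endothelial genes and 11 of 12 muscle genes had one above 0. No erythroid or proliferation gene had an unadjusted p below 0.05. In the other lists 1 macrophage, 2 endothelial and 1 muscle gene were higher and 1 airway gene lower at that p. Every sum overlapped between the groups, and the part of cell composition in the member genes was not tested. In whole lung, fewer cells of a type and less RNA per cell cannot be told apart.

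Glucose enters through GLUT1, encoded by Slc2a1, and the high-affinity GLUT3, encoded by Slc2a3. Slc2a1 was at 52.8, 48.0, 61.9 and 41.3 CPM in LPS replicates 1 to 4 and at 36.02, 78.4, 40.2 and 39.7 CPM in LPS + Tan replicates 1 to 4. The log2 fold change was -0.07 (SE 0.24, edgeR adjusted p = 0.989). LPS + Tan replicate 2 was the highest of the 8 samples and the other 3 LPS + Tan samples were the lowest, so the group mean hid a split within the treated lungs. Without that replicate Slc2a1 was called lower, with a log2 fold change of -0.40. Slc2a3 lay at 18.9 to 30.5 CPM in LPS and 20.4 to 35.1 CPM in LPS + Tan, with a log2 fold change of 0.07 (SE 0.20).

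The hexokinases trap glucose as glucose 6-phosphate. Hk1, the ubiquitous form, was at 139, 122, 148 and 132 CPM in LPS and 114, 152, 109 and 106 CPM in LPS + Tan, a log2 fold change of -0.17 (SE 0.12, adjusted p = 0.936). Again LPS + Tan replicate 2 was above all LPS samples and the other 3 were below them. Without it Hk1 was called lower, with a log2 fold change of -0.30. Hk2, the inducible form, reached 49.9 CPM in LPS + Tan replicate 2 and 32.2 to 33.2 CPM in the other 3, beside 30.3 to 46.5 CPM in LPS. Hk3, the form of myeloid cells, varied least of the 3, at 38.0 to 42.2 CPM in LPS and 37.05 to 46.5 CPM in LPS + Tan.

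Phosphoglucose isomerase (Gpi1) makes fructose 6-phosphate, which phosphofructokinase commits to glycolysis. Gpi1 was at 204 to 269 CPM in LPS and 216 to 268 CPM in LPS + Tan. The liver form Pfkl had a log2 fold change of -0.02 (SE 0.12) and the platelet form Pfkp one of -0.01 (SE 0.11). Pfkp exons share 748 bases with Pitrm1, an opposite-strand gene that was also counted, and no source used here says whether counting used strand. Pfkm, the muscle form, was at 13.2, 10.3, 12.2 and 10.3 CPM in LPS and at 15.7, 11.4, 14.9 and 12.4 CPM in LPS + Tan, with a log2 fold change of 0.24 (SE 0.14, adjusted p = 0.926). Its highest values, in LPS + Tan replicates 1 and 3, fell in the 2 lungs with the highest summed heart and skeletal muscle markers, at 251 and 346 CPM. LPS replicate 4, however, had nearly the same marker sum as LPS + Tan replicate 1, 248 CPM, with Pfkm at 10.3 CPM. LPS + Tan replicates 2 and 4 had marker sums of 174 and 197 CPM, and 11 of the 12 tested muscle genes had a log2 fold change above 0. The part of muscle RNA in the Pfkm values was not tested. Without LPS + Tan replicate 2 Pfkm was called higher, with a log2 fold change of 0.32.

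Pfkfb3 encodes the bifunctional enzyme with the strongest kinase activity toward fructose 2,6-bisphosphate, the allosteric activator of phosphofructokinase, and is induced by both hypoxia and inflammatory signals. It was at 570, 654, 620 and 505 CPM in LPS replicates 1 to 4 and at 215, 456, 257 and 530 CPM in LPS + Tan replicates 1 to 4. The LPS lungs were close together, while LPS + Tan replicates 1 and 3 stood far below them, replicate 2 just below, and replicate 4 within their range. The means were 587 ± 64.8 and 364 ± 152 CPM (SD, n = 4 each), and Pfkfb3 fell by 0.69 on the log2 scale (SE 0.26, 95% interval -1.27 to -0.11, edgeR's quasi-likelihood test, adjusted p = 0.924). The call was lost without LPS replicate 2, LPS + Tan replicate 1 or LPS + Tan replicate 3, where the log2 fold change was -0.64, -0.50 and -0.55, and held without any other single sample. Pfkfb4, its relative, was at 27.3 to 33.2 CPM in LPS and 27.5 to 34.3 CPM in LPS + Tan, a log2 fold change of 0.06 (SE 0.10).

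**Figure D2:**
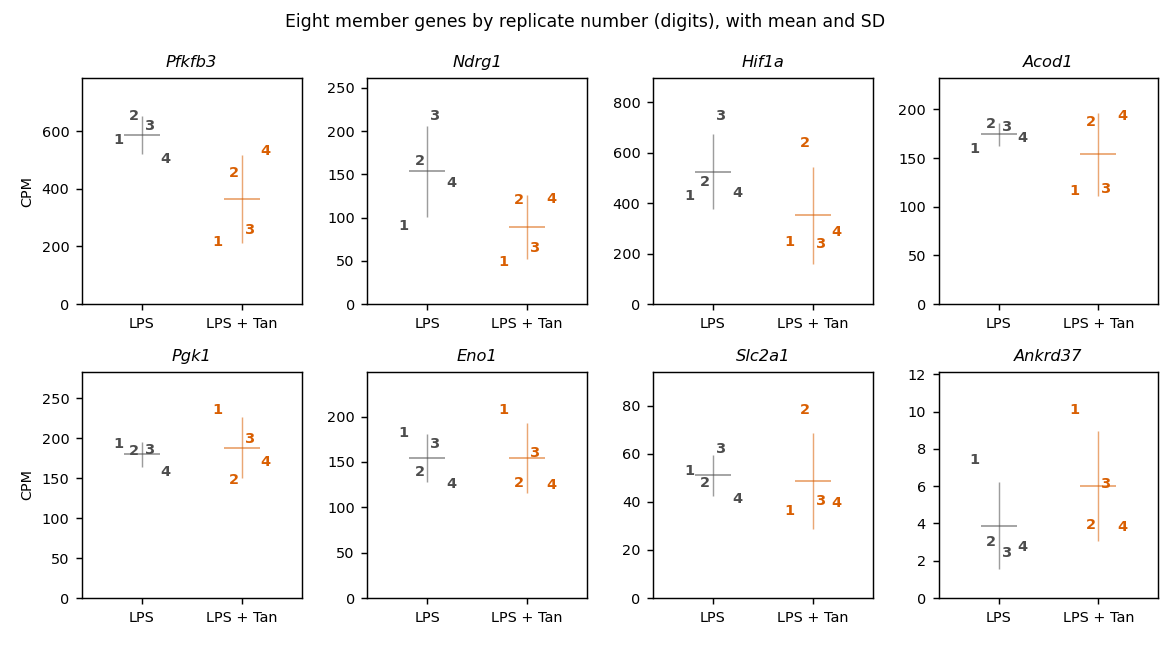
CPM (y axis, from 0) of Pfkfb3, Ndrg1, Hif1a, Acod1, Pgk1, Eno1, Slc2a1 and Ankrd37 in the LPS and LPS + Tan groups, where each digit is a sample's replicate number and the lines give the mean and SD (n = 4). LPS + Tan replicates 1 and 3 are the lowest of their group for Pfkfb3, Ndrg1, Hif1a and Acod1 and the highest for Pgk1, Eno1 and Ankrd37, while replicate 2 is the highest for Slc2a1 at 78.4 CPM.

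Lower glycolysis, from aldolase to pyruvate kinase, gave no call for any of its 9 genes, with 5 log2 fold changes below 0 and 4 above (Gapdh, Pgam1 and Pkm turned above 0 with sample totals). Aldolase A (Aldoa), which splits the hexose, was at 358 to 482 CPM in LPS and 388 to 467 CPM in LPS + Tan, a log2 fold change of 0.03 (SE 0.11). Triosephosphate isomerase (Tpi1) was at 123, 106, 101 and 94.4 CPM in LPS and 142, 90.8, 127 and 115 CPM in LPS + Tan, a log2 fold change of 0.16 (SE 0.14). Phosphoglycerate kinase (Pgk1), the first ATP-forming step, was at 193, 184, 185 and 157 CPM in LPS and 236, 148, 198 and 170 CPM in LPS + Tan. For both genes LPS + Tan replicates 1 and 3 were above every LPS lung and replicate 2 was below every one. Without LPS + Tan replicate 2 Tpi1 was called higher, with a log2 fold change of 0.27, while without LPS + Tan replicate 1 its log2 fold change was 0.06. Enolase 1 (Eno1) was also highest in replicates 1 and 3 of its group, at 208, 127, 159 and 124 CPM in LPS + Tan beside 126 to 182 CPM in LPS. Phosphoglycerate mutase (Pgam1) was at 58.1 to 67.7 and 55.2 to 70.3 CPM, and pyruvate kinase (Pkm), which completes the pathway, at 517 to 656 and 518 to 662 CPM. The neuronal forms were scarce, with Aldoc at 2.16 to 3.43 CPM and Eno2 at 1.35 to 3.42 CPM over the 8 samples.

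Gapdh, the oxidising step and a common reference gene, had a log2 fold change of -0.0037 (SE 0.12), at 11.1 to 14.96 CPM in LPS and 12.2 to 13.7 CPM in LPS + Tan. On the scale of FPKM, which divides the count by gene length and sample total and allows levels of different genes to be set side by side, Gapdh was at 6.37 to 8.48. This was well below the adjoining steps, since Tpi1 was 8.04 to 12.3 times and Pgk1 10.6 to 16.4 times as high in the same samples. The coding sequence of Gapdh has 146 near copies in the GENCODE vM21 annotation of GRCm38 (at least 90% identity over at least 80% of its length), of which 137 are annotated as pseudogenes. No other member had more than 6 such copies, the number found for Ldha and for Eno1. How reads shared between copies were counted is not given in the sources used here, so the level of Gapdh is uncertain, and the part of shared reads in it was not tested.

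**Figure D3:**
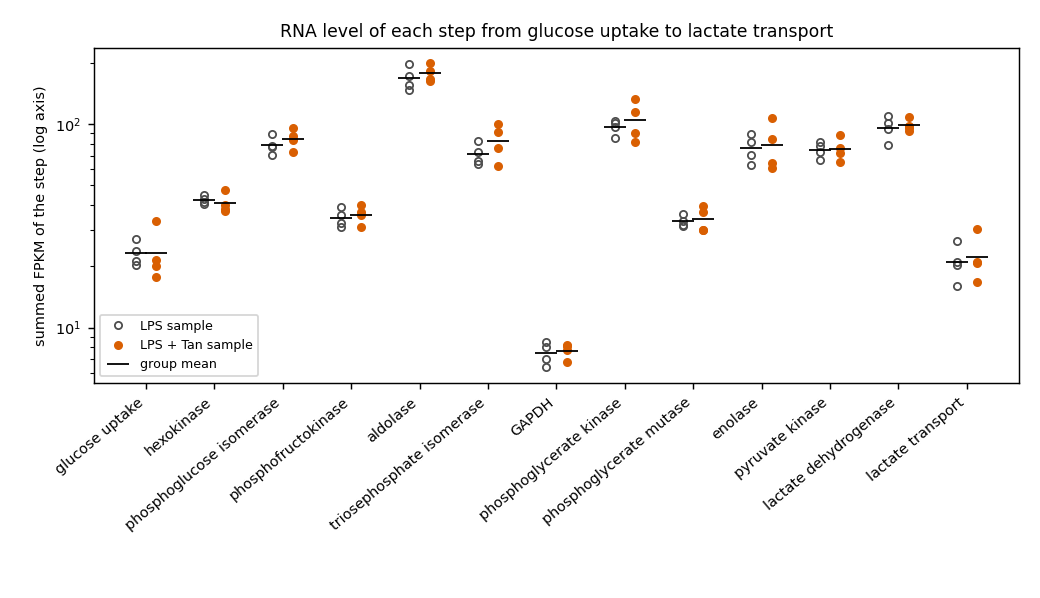
Summed FPKM (y axis, log scale) of the member genes at each of 13 steps in pathway order (x axis), with a point per sample and a bar for each group mean. The aldolase step is the highest and the Gapdh step, at 6.37 to 8.48 FPKM, the lowest, and LPS and LPS + Tan points overlap at every step.

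Along the pathway, the summed FPKM of a step was highest for aldolase, at 168 ± 21.6 in LPS and 177 ± 16.9 in LPS + Tan (SD, n = 4 each). Phosphoglycerate kinase came next, at 97.0 ± 8.21 and 105 ± 23.3, and did not differ beyond its spread from lactate dehydrogenase, at 96.0 ± 12.96 and 98.5 ± 6.87. Phosphoglucose isomerase, triosephosphate isomerase, enolase and pyruvate kinase formed a middle tier with group means of 71.3 to 84.9 FPKM and overlapping ranges. The early commitment steps were lower, at 42.3 ± 1.84 and 40.8 ± 4.69 for hexokinase and 34.6 ± 3.53 and 35.9 ± 3.78 for phosphofructokinase, as was phosphoglycerate mutase further down, at 33.2 ± 2.20 and 34.2 ± 4.73. Glucose uptake, at 23.1 ± 3.07 and 23.2 ± 6.95, and lactate transport, at 20.9 ± 4.34 and 22.2 ± 5.79, were the lowest steps apart from Gapdh. The member transporters at both ends of the pathway thus had lower mean FPKM than every enzyme step between them but Gapdh. Each of these ends sums only 2 genes. The other glucose and monocarboxylate transporters, 19 in the deposited counts, were not part of any step. Together they summed to 664 to 787 CPM in LPS and 641 to 796 CPM in LPS + Tan. The order of the steps rests on the gene lengths behind the FPKM values. These were 7.69 kb for Pkm, 5.34 kb for Ldha, 2.42 kb for Aldoa and 1.30 kb for Ldhb. By CPM, which ignores length, Pkm was above Aldoa. Aldoa has 3 near copies in the annotation and Pkm 5, beside the 6 each of Ldha and Eno1, so the levels of these genes also depend on how shared reads were counted.

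Lactate dehydrogenase is a tetramer of A and B chains. Ldha, whose product favours lactate formation, was at 353, 292, 327 and 240 CPM in LPS and 352, 273, 292 and 292 CPM in LPS + Tan, and Ldhb at 45.0 to 59.7 and 49.7 to 57.0 CPM. Both log2 fold changes were -0.01 (SE 0.13 and 0.10). Lactate leaves through MCT1 (Slc16a1) and the hypoxia-inducible MCT4 (Slc16a3). Slc16a3 was at 39.3, 30.6, 45.3 and 32.8 CPM in LPS and 40.6, 72.2, 39.4 and 32.1 CPM in LPS + Tan, with a log2 fold change of 0.32 (SE 0.23, adjusted p = 0.936). LPS + Tan replicate 2, the lung that was also highest for Slc2a1, Hk1 and Hk2, set this difference, and without it the log2 fold change was 0.014. Slc16a1 was at 43.9, 55.1, 67.8 and 31.6 CPM in LPS and 37.4 to 46.9 CPM in LPS + Tan, with a log2 fold change of -0.26 (SE 0.20). Without LPS replicate 4 it was called lower, with a log2 fold change of -0.43, while without LPS replicate 3 the log2 fold change was -0.08.

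Pyruvate dehydrogenase links glycolysis to the mitochondria and is switched off by its kinases. Its catalytic alpha chain Pdha1 was the steadiest of the 37 genes within the treated group, at 177 to 181 CPM, beside 163 to 180 CPM in LPS, and its exons share 603 bases with Map3k15, also counted and on the opposite strand. The kinase Pdk1, a HIF target, was at 14.9 to 19.3 and 16.5 to 18.8 CPM. Pdk3 was at 38.3, 42.5, 46.1 and 37.1 CPM in LPS and 39.8, 33.4, 32.2 and 38.4 CPM in LPS + Tan, a log2 fold change of -0.19 (SE 0.10, adjusted p = 0.924). LPS + Tan replicates 2 and 3 were below all LPS samples, and replicates 1 and 4 within their range.

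Hif1a was at 427, 485, 746 and 440 CPM in LPS replicates 1 to 4 and 245, 636, 239 and 285 CPM in LPS + Tan replicates 1 to 4. In 3 of the 4 treated lungs it was below every LPS lung, and in replicate 2 it was above 3 of them. The means were 525 ± 150 and 351 ± 191 CPM (SD, n = 4 each), with a log2 fold change of -0.58 (SE 0.32, 95% interval -1.29 to 0.14, edgeR adjusted p = 0.924). The log2 fold change was -0.36 without LPS replicate 3. Without LPS + Tan replicate 2 the log2 fold change was -1.03 and Hif1a was called lower. That fit gave the lowest adjusted p of Hif1a among all those tried, 0.196 after Benjamini-Hochberg adjustment in edgeR, and the highest rounded to 1. The exons of Hif1a share 330 bases with Gm15283, which lies on the opposite strand and is also in the count table, and whether counting used strand is not given in the sources used here.

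Epas1 encodes HIF-2α, the HIF subunit that is rich in lung endothelium, and had the highest FPKM of the 37 genes. It was at 1810 to 2171 CPM in LPS and 1807 to 2398 CPM in LPS + Tan, a log2 fold change of 0.04 (SE 0.12). The prolyl hydroxylase Egln1, the main oxygen sensor for HIF, was at 64.8 to 75.2 and 66.8 to 84.4 CPM, a log2 fold change of 0.12 (SE 0.09). Its hypoxia-inducible relative Egln3 was near the floor of the set, at 0.988 to 1.89 and 1.05 to 2.34 CPM.

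Among HIF targets outside glycolysis, Ndrg1, a stress-responsive gene induced by hypoxia, was at 90.7, 165, 218 and 140 CPM in LPS and 48.9, 121, 65.3 and 121 CPM in LPS + Tan. LPS replicate 1 fell within the treated range, and the other 3 LPS lungs were above all treated ones. Ndrg1 fell by 0.78 on the log2 scale (SE 0.33, 95% interval -1.51 to -0.06, edgeR adjusted p = 0.924). The call was lost with limma on log2 FPKM, where the log2 fold change was -0.76 to -0.78. It was also lost without LPS replicate 2, LPS replicate 3, LPS + Tan replicate 1 or LPS + Tan replicate 3, at log2 fold changes of -0.75, -0.57, -0.58 and -0.66. Ndrg1 exons share 137 bases with Gm2895 on the opposite strand, also in the table.

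Ankrd37, a small ankyrin repeat gene responsive to HIF, was not called. It was at 7.39, 2.99, 2.43 and 2.75 CPM in LPS and 10.1, 3.92, 6.13 and 3.82 CPM in LPS + Tan, a log2 fold change of 0.62 (SE 0.42, 95% interval -0.31 to 1.55, adjusted p = 0.931). All 4 treated lungs were above LPS replicates 2 to 4, and LPS replicate 1 was above 3 of the treated ones. The log2 fold change was 0.24 without LPS + Tan replicate 1. Without LPS replicate 1 the log2 fold change was 1.14 and Ankrd37 was called higher. Its exons share 186 bases with Lrp2bp and 57 with Ufsp2, both on the opposite strand. Vegfa, the endothelial growth factor, was at 268 to 327 and 300 to 349 CPM with a log2 fold change of 0.09 (SE 0.10), and the mitophagy receptor Bnip3 at 74.0 to 108 and 67.4 to 105 CPM with one of -0.14 (SE 0.15). The 4 non-glycolytic HIF targets thus gave 2 log2 fold changes below 0 and 2 above.

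Acod1 encodes the enzyme that makes itaconate in activated myeloid cells. It was at 160, 185, 182 and 171 CPM in LPS and 116, 187, 119 and 194 CPM in LPS + Tan, a log2 fold change of -0.18 (SE 0.17, adjusted p = 0.961). The treated lungs fell apart into replicates 1 and 3, below every LPS lung, and replicates 2 and 4, above every LPS lung. Idh1, the cytosolic isocitrate dehydrogenase that supplies NADPH, was at 73.3 to 82.3 and 70.8 to 78.1 CPM, a log2 fold change of -0.08 (SE 0.07).

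**Figure D4:**
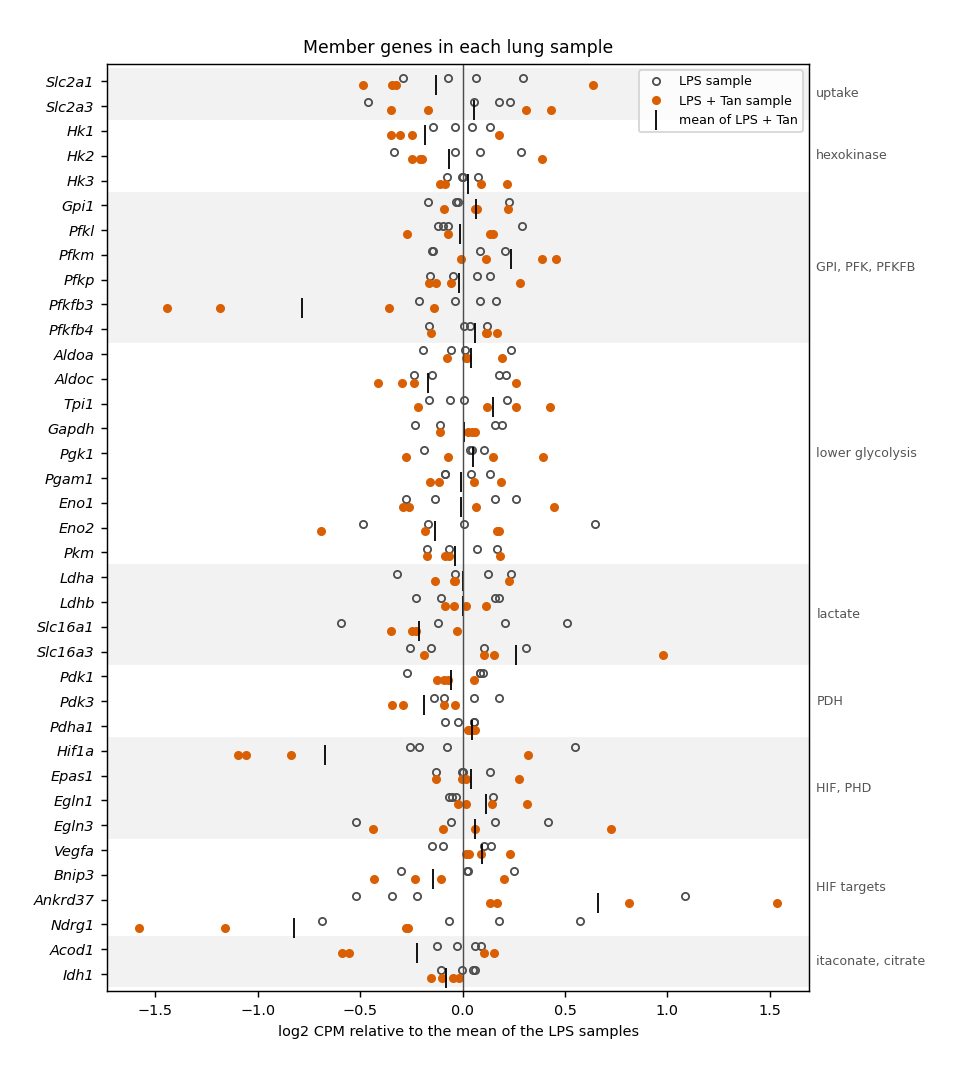
Log2 CPM of each of the 37 genes relative to the mean of the LPS samples (x axis), with open circles for the 4 LPS samples, filled circles for the 4 LPS + Tan samples and a tick for the LPS + Tan mean. The treated lungs spread widest for Pfkfb3, Hif1a, Ankrd37 and Ndrg1.

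The spread among treated lungs did not run one way across the set. LPS + Tan replicates 1 and 3 were the 2 lowest treated samples for 7 members, Pfkp, Pfkfb3, Ldhb, Hif1a, Vegfa, Ndrg1 and Acod1 (18.9%), beside 18.7% of all tested genes. The same replicates were the 2 highest for 12 members, Slc2a3, Pfkm, Pfkfb4, Aldoa, Tpi1, Gapdh, Pgk1, Pgam1, Eno1, Pkm, Epas1 and Ankrd37 (32.4%), beside 20.3% of tested genes. These replicates were singled out after their values were seen. Of the 6 possible pairs of treated lungs, replicates 2 and 4 were the 2 lowest for 12 members, replicates 1 and 3 and replicates 3 and 4 for 7 each, and the other pairs for 2 to 5. These orders within a group carry no test.

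Isoform shares, the percent of an enzyme's summed FPKM taken by each gene, overlapped between the groups. Hk1 made up 58.1 ± 2.05% of hexokinase FPKM in LPS and 55.04 ± 3.53% in LPS + Tan (SD, n = 4), Hk3 27.0 and 29.7%, and Hk2 14.9 and 15.2%. Phosphofructokinase was mostly Pfkp (46.4 and 45.4%) and Pfkl (43.7 and 42.9%), with Pfkm at 8.77 to 11.3% in LPS and 8.58 to 13.3% in LPS + Tan. Aldoa held at least 99.2% of aldolase and Eno1 at least 98.55% of enolase in every sample, and Ldha held 54.5 to 62.0% and 55.5 to 62.6% of lactate dehydrogenase. With no sample left out, the largest difference in a share was that of Slc16a1 in monocarboxylate transporter FPKM. This share was 48.1, 59.9, 55.4 and 44.4% in LPS and 45.03, 35.0, 46.2 and 49.1% in LPS + Tan. Its means differed by more than either SD, at 51.9 ± 6.99% and 43.8 ± 6.14%, and the ranges overlapped. The difference was -8.08 percentage points, or -5.14 without LPS + Tan replicate 2. The share of Hif1a in the 2 HIF alpha subunits was 19.1, 22.7, 27.3 and 19.5% in LPS and 10.1, 26.1, 11.5 and 14.7% in LPS + Tan. Replicate 2 again stood with the LPS lungs and the other 3 treated lungs below them.

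**Figure D5:**
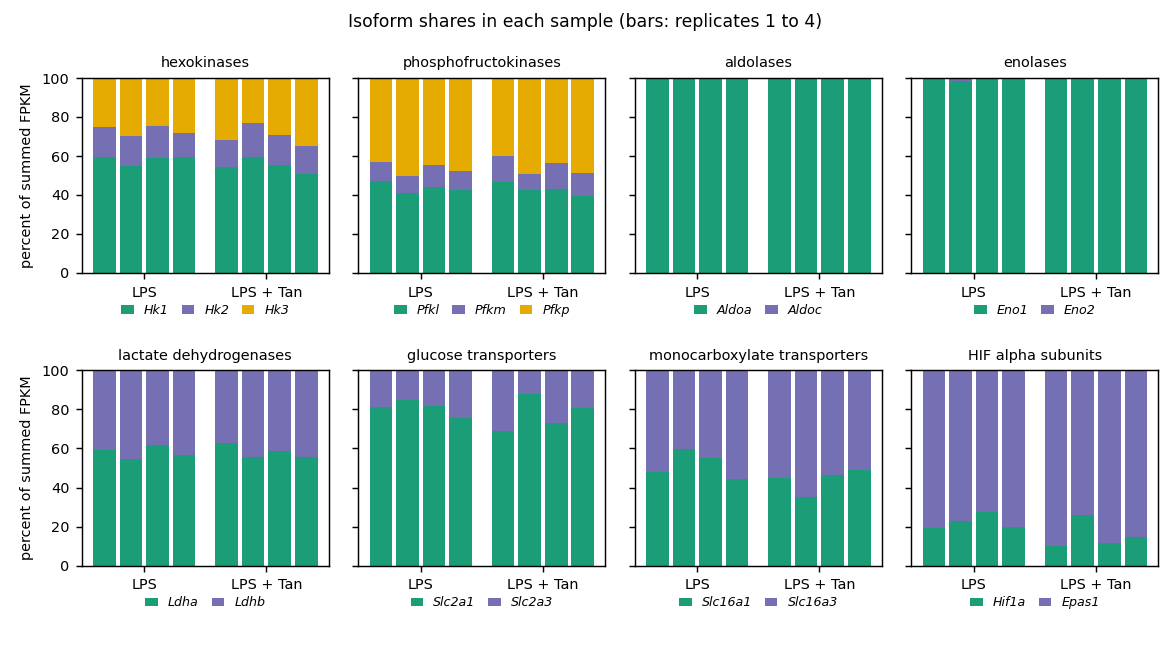
Stacked bars of the percent of summed FPKM (y axis) held by each gene of 8 families, with a bar per sample in replicate order for LPS and LPS + Tan. Pfkp and Pfkl share most of the phosphofructokinase FPKM, Aldoa and Eno1 fill their steps, and the Hif1a part is 10.1 to 14.7% in 3 treated lungs beside 19.1 to 27.3% in LPS.

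Beyond the 37 genes, 6 lists of other genes of these pathways held 155 entries, of which 144 were tested. At an unadjusted p below 0.05, 2 were lower and 6 higher in LPS + Tan (5.56%, against 5.12% of all tested genes), and none passed after adjustment. The number lower was 0 without LPS replicate 3, 1 without LPS replicate 2 or LPS + Tan replicate 1, 5 without LPS + Tan replicate 4, 6 without LPS replicate 4 and 9 without LPS + Tan replicate 2. In the list of other glycolytic isoforms and side steps 1 of 25 was lower, the liver pyruvate kinase Pklr (log2 fold change -0.93, SE 0.38, CPM under 1 in all samples), and 2 were higher, led by the glucose bisphosphate synthase Pgm2l1 (0.37, SE 0.12). None of 16 other glucose and monocarboxylate transporters, 12 pentose phosphate genes or 30 pyruvate dehydrogenase and TCA cycle genes was called. Of 18 HIF regulators 1 was higher, Siah2, a ubiquitin ligase that degrades prolyl hydroxylases, at 9.49 to 10.8 CPM in LPS and 11.5 to 14.5 CPM in LPS + Tan with no overlap (0.31, SE 0.11). Of 43 other HIF targets 1 was lower and 3 were higher. The lower one was Nos2, inducible nitric oxide synthase, at 74.9 to 111 CPM in LPS and 36.6 to 82.6 CPM in LPS + Tan (-0.70, SE 0.26), and the higher ones were led by the MYC antagonist Mxi1 (0.30, SE 0.10).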

How the data were processed

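Lung RNA-seq of 4 LPS and 4 LPS + Tan samples was analysed, grouped by the sample descriptions. Nothing in the labels says that each sample came from its own mouse, so p-values measure the spread between samples. The authors deposited raw read counts and FPKM for 24584 genes, and each FPKM value equals the count over gene length and over sample total. The submitters' processing notes name GRCm38 and mm10, and no source used here gives the aligner or counter. Labels and methods name different library kits. The test was run in edgeR 4.0.16 under R 4.3.3 (filterByExpr, TMM, quasi-likelihood test, no covariate, Benjamini-Hochberg adjustment over all 15706 tested genes), and the code was tested on simulated data, where 66.5% of 200 genes changed 2-fold and 92.5% of 200 changed 3-fold were recovered at 4 samples per group. Alternatives were DESeq2 1.42.0, limma 3.58.1 (voom, or log2 FPKM with a pseudocount of 1 or 0.1), a likelihood ratio test, other scalings and filters, a replicate block, and each sample left out. SE is the log2 fold change divided by the square root of the test's F. Near copies of coding sequences were found with BLAST 2.17.0. Every member was described, and from each list of other pathway genes the gene with the lowest unadjusted p in each direction was named where that p was below 0.05. The genes and lists were chosen with earlier results of these data known. No column of sample values was left unassigned.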

Additional observations from a re-analysis of the deposited data

Results flagged for a closer look

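Of 110 groups of 4 values examined, 8 held a sample that stood apart, meaning that its gap to the nearest other sample, as a part of the group's whole range, passed Dixon's 95% critical value, and chance gives about 1 in 20, or 5.5. In the LPS group these were a high Pfkl in replicate 1 (gap 0.875 of the range of log2 CPM), a low Pdk1 in replicate 3 (0.957), a high Egln1 in replicate 1 (0.834), a high sum of heart and skeletal muscle markers in replicate 4 (0.887) and a low Hk1 share of hexokinase FPKM in replicate 2 (0.8293). In the LPS + Tan group they were a high Slc2a1 in replicate 2 (0.858), a high Hk2 in replicate 2 (0.926) and a low Pfkfb4 in replicate 4 (0.836). LPS + Tan replicate 2 was thus set apart for a glucose transporter and for the inducible hexokinase, and its Slc16a3, the hypoxia-inducible lactate exporter, was also the highest of the 8 samples at 72.2 CPM. With 8 flags where 5.5 are given by chance, the number itself is close to that of chance.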

How the results depend on the processing

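No member passed adjustment in any fit. The calls of Pfkfb3 and Ndrg1 held under DESeq2, limma-voom, the likelihood ratio test, other scalings and other filters, but with limma on log2 FPKM 1 member was lower at a pseudocount of 1, 1 at a pseudocount of 0.1 and 1 over all genes, where 1 (Pdha1) was higher. Leaving out each sample in turn gave 0 to 5 members lower, 0 to 2 higher and 0 to 1 past the study's thresholds. The number of other pathway genes lower, 2 in the report, was 4 with limma-voom, 1 with the filter at 1 CPM in 4 samples, 1 with limma at a pseudocount of 1 and 0 to 9 with a sample left out. Over all genes, 804 were called in the report, against 1353 with limma at a pseudocount of 1 and no filter and 480 to 1626 with a sample left out. Isoform shares were checked for Hk3, Pfkl, Aldoa, Eno1, Ldha, Slc2a1, Slc16a1 and Hif1a. The group differences in these shares moved by less than the spread between replicates when shares were taken of counts or a sample was left out. The shares of Hk1, Hk2, Pfkm and Pfkp were not checked in this way.

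Same-numbered samples of both groups did not vary together (correlations of their deviations from -0.15 to 0.12), and 1 of the 8 correlated best with its own number. Such correlations cannot show whether same-numbered samples were handled together, and the labels do not say. The replicate block therefore served only as an alternative fit, in which 2 members were lower, 1 (Ankrd37) higher and 6 other pathway genes lower. Members whose log2 fold change changed sign, none of them called where the sign turned, are given by fit. Under the replicate block they were 0.0050 for Gapdh, -0.010 for Eno1, 0.0025 for Ldha and 0.00092 for Ldhb. With limma-voom they were 0.0067 for Gapdh, -0.011 for Eno1, 0.0025 for Ldha and 0.0010 for Ldhb, and without a filter -0.0013 for Eno1. Sample totals alone, which moved the median of all genes from 0.0070 to 0.05, gave 0.029 for Pfkl, 0.028 for Pfkp, 0.042 for Gapdh, 0.041 for Pgam1, 0.011 for Pkm, 0.040 for Ldha and 0.032 for Ldhb. With limma on log2 FPKM at a pseudocount of 1, with and without a filter alike, they were 0.025 for Pfkl, 0.023 for Pfkp, 0.041 for Gapdh, 0.032 for Pgam1, 0.0060 for Pkm, 0.044 for Ldha and 0.042 for Ldhb, and at a pseudocount of 0.1 they were 0.026 for Pfkl, 0.024 for Pfkp, 0.047 for Gapdh, 0.033 for Pgam1, 0.0060 for Pkm, 0.044 for Ldha and 0.043 for Ldhb. With a sample left out the sign turned for Pfkl (-0.071 to 0.091), Pfkp (-0.12 to 0.036), Gapdh (-0.077 to 0.062), Pgam1 (-0.077 to 0.044), Ldha (-0.10 to 0.076), Ldhb (-0.079 to 0.049), Slc2a3 (-0.070 to 0.19), Eno1 (-0.17 to 0.10), Eno2 (-0.30 to 0.11), Epas1 (-0.044 to 0.10), Egln3 (-0.18 to 0.24), Slc2a1 (-0.40 to 0.048), Hk2 (-0.24 to 0.042), Pkm (-0.12 to 0.023), Aldoa (-0.027 to 0.12), Pgk1 (-0.064 to 0.16) and Hk3 (-0.034 to 0.076), given as the lowest and highest value.

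Every lung had received LPS, so no value shows what LPS did to these genes. With 4 samples per group and simulated 2-fold changes recovered in 66.5% of cases, smaller differences would often be missed. Errors were wide both for scarce members (SE 0.31 for Egln3) and for some abundant ones (0.33 for Ndrg1 and 0.32 for Hif1a).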
